A study of Mus musculus with 6 samples.

Results

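The 10 genes described here are immediate-early genes outside the AP-1 and NR4A families: Egr1, Egr2 and Egr3, Ier2, Ier3 and Ier5, Btg2, Klf6, Zfp36 and Myc. They were taken by name, and each had 1 probe set annotated to exactly 1 gene symbol, so that 10 of 10 listed genes were found among the 22087 genes measured. Livers of 6 STAM mice, 3 on vehicle and 3 on telmisartan, were profiled with the Affymetrix Mouse Gene 2.0 ST array, using 1 array for each animal, to find the transcripts that differ with the drug. STAM mice are a model of diabetic nonalcoholic steatohepatitis (NASH). All 6 were male C57BL/6J mice given 200 μg of streptozotocin 2 days after birth, which destroys insulin-producing beta cells, and, starting at 4 weeks, chow that held 60 kcal% fat. Between 6 and 12 weeks of age, the telmisartan group received 5 mg/kg of telmisartan daily by mouth in 0.5% carboxymethyl cellulose, and the vehicle group served as its control. The 3 mice per group were drawn at random from 7, every mouse received streptozotocin and the diet, and no mouse without them enters the comparison. Levels are the log2 of the deposited robust multi-array average (RMA) intensities, and a level of 1 gene is not set against that of another, because probe sets differ in brightness.

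Immediate-early genes are transcribed within minutes of a stimulus, from factors that are already present in the cell, and their mRNAs are short-lived. Growth factors and stress reach them through the ERK MAP kinases, the ETS factor ELK1 and serum response factor (SRF), which binds the CArG box, and through CREB at cAMP response elements. In the liver they are known to rise after partial hepatectomy and injury. Angiotensin II, whose type 1 receptor telmisartan blocks, is a known inducer of Egr1 in vascular smooth muscle cells.

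The promoters of Klf6 and Ier3, whose means were lower with telmisartan, and of Btg2 and Zfp36, whose means were higher, are given (RefSeq, GRCm38.p6, 250 bases before to 50 bases after the annotated start, 5′ to 3′ on the strand of the gene). Of these genes only Klf6 passed the thresholds given below, while the differences of Ier3, Btg2 and Zfp36 did not. Capitals mark the CArG box and the motifs TGACG (the core of a cAMP response element, contained in the full element TGACGTCA), TGACTCA (AP-1), GCGNGGGCG (EGR), TATAAA and CACGTG (the E-box bound by MYC), searched on both strands.
Klf6, chr13:5861239-5861538, plus strand: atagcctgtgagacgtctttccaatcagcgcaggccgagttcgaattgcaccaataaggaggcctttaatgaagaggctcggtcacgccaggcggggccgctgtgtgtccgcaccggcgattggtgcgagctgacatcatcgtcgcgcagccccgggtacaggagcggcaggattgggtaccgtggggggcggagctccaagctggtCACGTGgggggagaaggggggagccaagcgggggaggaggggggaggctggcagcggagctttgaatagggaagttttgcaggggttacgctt
Ier3, chr17:35821463-35821762, plus strand: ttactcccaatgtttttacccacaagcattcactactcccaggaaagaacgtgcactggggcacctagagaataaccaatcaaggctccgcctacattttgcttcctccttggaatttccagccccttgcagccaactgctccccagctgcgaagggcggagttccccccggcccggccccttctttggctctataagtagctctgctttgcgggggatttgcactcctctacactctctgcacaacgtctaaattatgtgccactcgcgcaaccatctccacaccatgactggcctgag
Btg2, chr1:134079106-134079405, minus strand: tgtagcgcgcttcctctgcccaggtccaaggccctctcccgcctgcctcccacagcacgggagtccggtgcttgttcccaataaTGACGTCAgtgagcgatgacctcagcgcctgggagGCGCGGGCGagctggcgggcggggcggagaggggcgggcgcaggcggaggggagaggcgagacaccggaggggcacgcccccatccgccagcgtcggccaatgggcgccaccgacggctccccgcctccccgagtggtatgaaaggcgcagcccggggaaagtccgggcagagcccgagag
Zfp36, chr7:28379179-28379478, minus strand: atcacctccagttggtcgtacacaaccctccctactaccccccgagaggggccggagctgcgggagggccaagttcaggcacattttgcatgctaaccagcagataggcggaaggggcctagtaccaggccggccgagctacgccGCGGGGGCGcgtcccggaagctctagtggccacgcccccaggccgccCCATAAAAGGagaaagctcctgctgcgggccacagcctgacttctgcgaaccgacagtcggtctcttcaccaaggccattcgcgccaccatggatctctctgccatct
The promoter table held 10 entries for 6 of the 10 genes (Btg2, Egr2, Ier3, Ier5, Klf6 and Zfp36) and none for Egr1, Egr3, Ier2 and Myc. A CArG box lay in the Zfp36 promoter and in 4 of the 5 overlapping or alternative Egr2 entries, while 1.63% of all 32851 promoters of this length hold one. TGACGTCA was found for Btg2 alone (1.79% of all promoters), and the EGR motif for Btg2 and Zfp36 (5.55%). CACGTG lay in the Klf6 promoter and 1 Egr2 entry (7.15% of all promoters). None of the marked motifs lay in the Ier3 or Ier5 entries, and neither TGACTCA (5.20% of all promoters) nor TATAAA (13.6%) lay in any entry of the 6 genes. These matches describe the letters in the window only.

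Klf6 and Myc were lower in the telmisartan group, and the other 8 genes did not pass. To be called, a gene needed a fold of 1.2 or more between the groups together with an unadjusted p under 0.05, as in the methods of the study. With limma, 2 of the 10 genes were called lower and 0 higher, where 3.48% of the 23094 probe sets fitted were called lower and 3.07% higher. After adjustment over all probe sets, 0 of the 10 genes had a limma p under 0.05 (lowest adjusted p = 0.698), against 2 before adjustment. The methods' t-test on the same values gave 0 genes at an unadjusted p under 0.05, where it called 1.71% of all probe sets lower and 1.47% higher. For none of the 10 genes did all telmisartan arrays lie on 1 side of all vehicle arrays, while 6.24% of probe sets had every telmisartan array below and 6.07% had every one above. The means of 4 genes were lower and those of 6 were higher with telmisartan. The median difference of the 10 genes was 0.04 on the log2 scale, beside -0.00018 over all probe sets fitted. Precision is limited by the number of arrays, and with 3 against 3 an exact permutation test cannot go below p = 0.1.

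**Figure D1:**
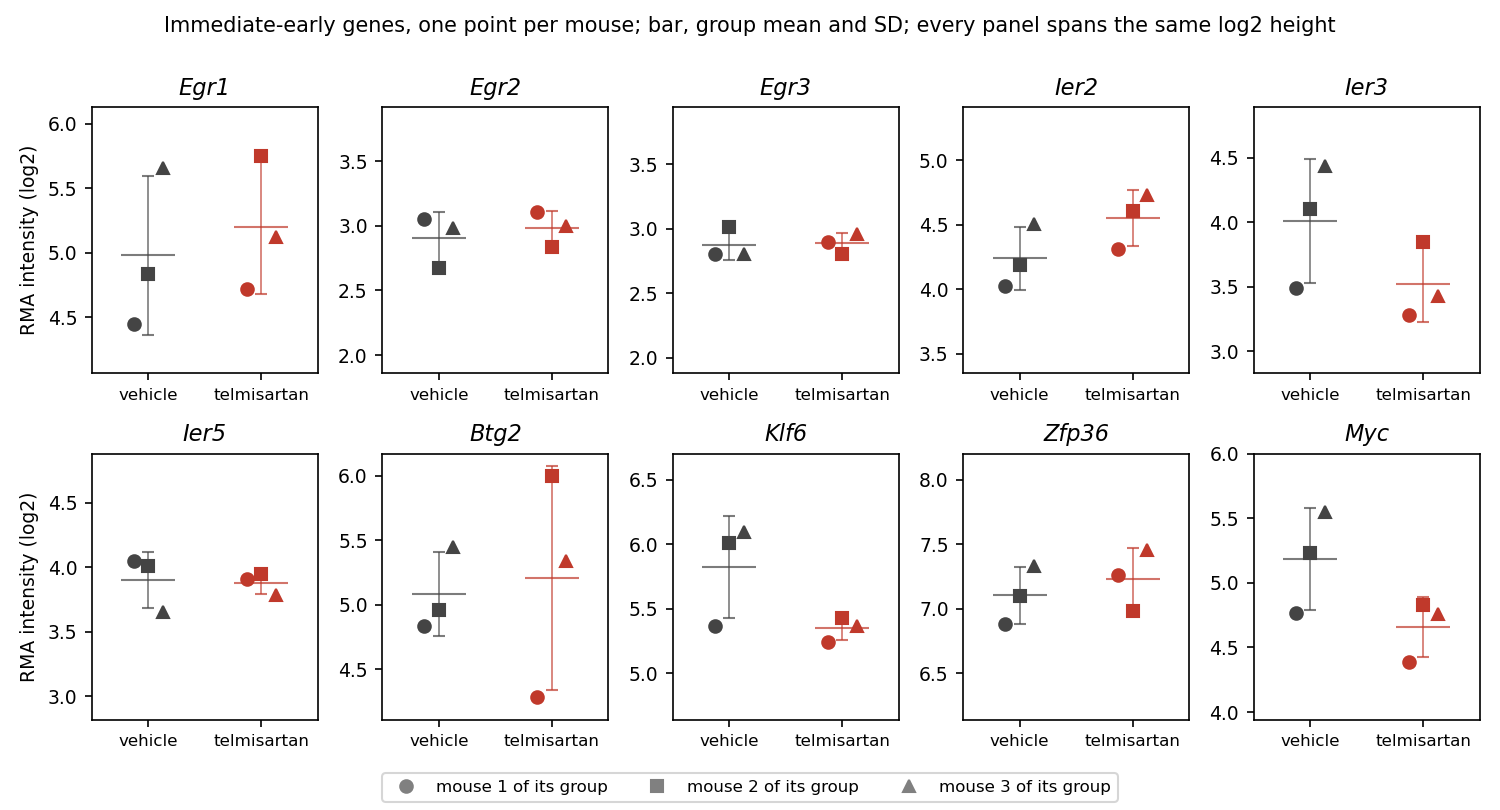
RMA intensity on the log2 scale (vertical axis) of each of the 10 genes in the 3 vehicle and the 3 telmisartan mice (points, with the shape giving the mouse number within its group), with the group mean and SD (bars); every panel spans the same height. The groups overlap for every gene, and for Klf6 and Myc the vehicle 1 mouse lies among the telmisartan mice while vehicle 2 and vehicle 3 lie above them.

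Klf6 encodes a zinc finger transcription factor of the Krüppel-like family that is known to be induced in activated hepatic stellate cells. Its log2 level (probe set 17285000) was 5.37, 6.01 and 6.10 in vehicle mice 1, 2 and 3, and 5.25, 5.43 and 5.37 in telmisartan mice 1, 2 and 3. Vehicle 2 and 3 were above all telmisartan mice, whereas vehicle 1 was inside their range, so the groups overlapped. The mean was 5.35 ± 0.09 (SD, n = 3) with telmisartan against 5.82 ± 0.40 (SD, n = 3) with vehicle. The log2 fold change was -0.48 (standard error 0.19, 95% interval -0.91 to -0.05, unadjusted limma p of 0.0336, limma adjusted p = 0.698), and the exact permutation test of the means gave p = 0.3.
Myc encodes the transcription factor that drives cell growth and ribosome production. Its log2 level (17311846) was 4.77, 5.23 and 5.55 in vehicle mice 1, 2 and 3, and 4.39, 4.83 and 4.76 in telmisartan mice 1, 2 and 3. The arrangement was that of Klf6: vehicle 2 and 3 were above every telmisartan mouse and vehicle 1 was between them. The log2 fold change was -0.52 (standard error 0.21, 95% interval -0.99 to -0.05, unadjusted limma p of 0.0331, limma adjusted p = 0.698), from 5.18 ± 0.39 (SD, n = 3) to 4.66 ± 0.23 (SD, n = 3).
Both calls depended on single mice. Without vehicle 1 the log2 fold changes were -0.70 for Klf6 (p of 0.000427) and -0.73 for Myc (p of 0.00365). Without vehicle 3 they were -0.34 for both genes (p of 0.124 and 0.122), and neither was called. Both calls were also lost without vehicle 2 (p of 0.115 and 0.0840), telmisartan 1 (0.0983 and 0.123) or telmisartan 3 (0.0696 and 0.0528), and that of Klf6 without telmisartan 2 (0.0580), where Myc was called (0.0413). The methods' t-test gave p of 0.113 for Klf6 and 0.119 for Myc.

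Ier3 encodes a short stress-inducible protein that is known to modulate ERK signalling and cell survival. Its log2 level (17337228) was 3.49, 4.10 and 4.44 in vehicle mice 1, 2 and 3, and 3.28, 3.84 and 3.43 in telmisartan mice 1, 2 and 3. Again vehicle 1 was within the telmisartan range and the other vehicle mice were above it. Its log2 fold change of -0.49 (standard error 0.24) was close to those of Klf6 and Myc, but its 95% interval of -1.05 to 0.06 held 0 and it was not past the thresholds (unadjusted limma p of 0.0759). It was called lower without vehicle 1 (-0.75, p of 0.00572) and without telmisartan 2 (-0.65, p of 0.0441).
Ier2, a nuclear protein of the immediate-early response, had the largest rise in mean of the 10 genes, a log2 fold change of 0.31 (95% interval -0.06 to 0.68, standard error 0.16, unadjusted limma p of 0.0866). Its log2 level (17511130) was 4.02, 4.19 and 4.50 in vehicle mice 1, 2 and 3, and 4.31, 4.61 and 4.73 in telmisartan mice 1, 2 and 3. Telmisartan 2 and 3 were above all vehicle mice, and telmisartan 1 was below vehicle 3. Ier2 was called higher without vehicle 3 (0.44, p of 0.0250) or telmisartan 1 (0.43, p of 0.0345).
Ier5, a further member of the group named for its early response, was at 4.05, 4.01 and 3.65 in vehicle mice 1, 2 and 3 and at 3.91, 3.95 and 3.78 in telmisartan mice 1, 2 and 3 (17228349). All telmisartan mice lay within the vehicle range, and the log2 fold change was -0.02 (standard error 0.13, 95% interval -0.32 to 0.28).

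**Figure D2:**
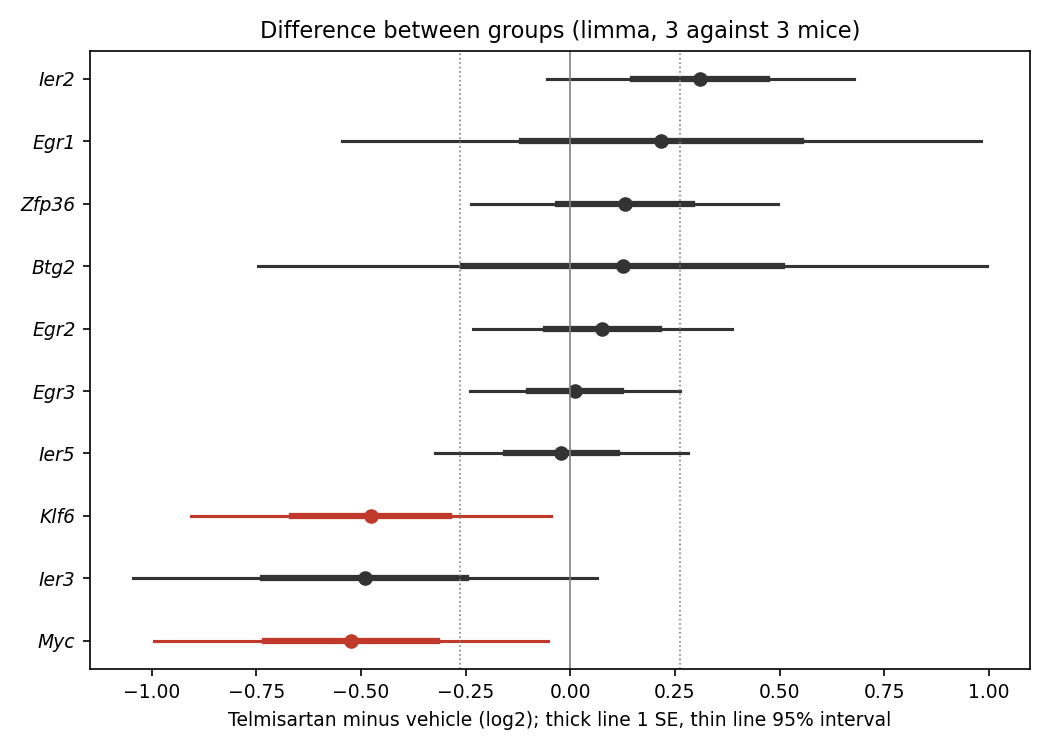
Telmisartan minus vehicle on the log2 scale (horizontal axis) for each gene (vertical axis), with the limma standard error (thick line) and 95% interval (thin line); dotted lines mark a fold of 1.2. Only the intervals of Klf6 and Myc (red) leave out 0, and those of Egr1 and Btg2 are the widest.

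Egr1 encodes the zinc finger transcription factor that carries growth and stress signals to later genes, and it is the prototype of its family. Its log2 level (17349514) was 4.45, 4.84 and 5.65 in vehicle mice 1, 2 and 3, and 4.72, 5.75 and 5.12 in telmisartan mice 1, 2 and 3. The lowest mouse was a vehicle mouse and the highest a telmisartan mouse, 2.46-fold apart, with vehicle 3 next to the highest. The log2 fold change was 0.22 (95% interval -0.55 to 0.98, standard error 0.33, unadjusted limma p of 0.532). The sign of the mean change rested on single mice: it was -0.05 without vehicle 1 and -0.06 without telmisartan 2, and 0.56 without vehicle 3.
Egr2 and Egr3 encode close relatives of EGR1 with the same kind of zinc fingers. Both were dim, with mean log2 levels of 2.94 and 2.88, below the mean log2 level of 4 that the filter on dim probe sets asked for. Egr2 (17233993) was at 3.06, 2.67 and 2.98 in vehicle mice 1, 2 and 3 and at 3.11, 2.84 and 2.998 in telmisartan mice 1, 2 and 3, with a log2 fold change of 0.08 (95% interval -0.23 to 0.39). Egr3 (17301718) was between 2.81 and 3.02 on all 6 arrays, with a log2 fold change of 0.01 (95% interval -0.24 to 0.26), and its sign turned with quantile normalization or cyclic loess.

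Btg2 encodes an antiproliferative protein that p53 is known to induce and that recruits the CCR4-NOT deadenylase to mRNAs. Its log2 level (17227089) was 4.84, 4.96 and 5.45 in vehicle mice 1, 2 and 3, and 4.28, 6.00 and 5.34 in telmisartan mice 1, 2 and 3. The telmisartan group held both the lowest and the highest of the 6 mice, 3.29-fold apart, the widest range of the 10 genes. The log2 fold change was 0.12 (standard error 0.38, 95% interval -0.75 to 0.996, unadjusted limma p of 0.751). It was -0.27 without telmisartan 2 and 0.59 without telmisartan 1, and neither was past the thresholds (p of 0.437 and 0.0516).
Zfp36 encodes tristetraprolin, which binds AU-rich elements and speeds the decay of cytokine mRNAs. Its log2 level (17488458) was 6.88, 7.10 and 7.33 in vehicle mice 1, 2 and 3, and 7.26, 6.98 and 7.46 in telmisartan mice 1, 2 and 3. The groups interleaved, and the log2 fold change was 0.13 (standard error 0.16, 95% interval -0.24 to 0.50).

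**Figure D3:**
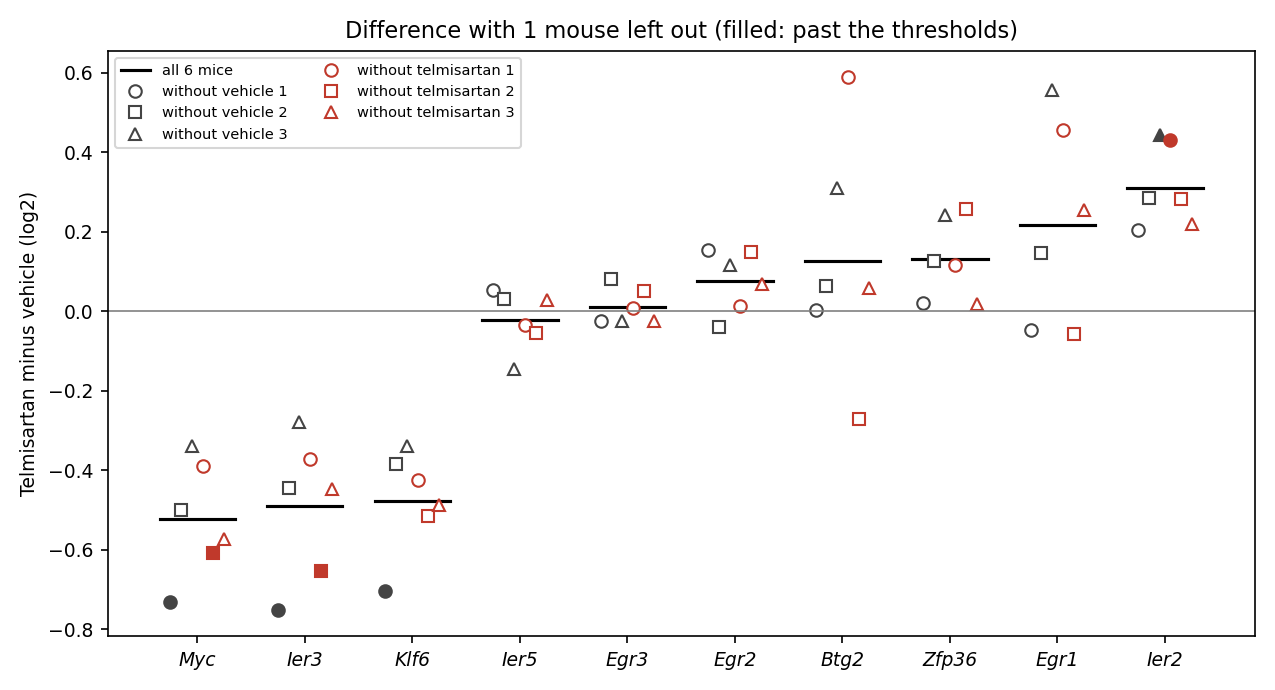
Telmisartan minus vehicle on the log2 scale (vertical axis) for each gene with all 6 mice (black line) and with each mouse left out in turn (points, coloured by the group and shaped by the number of the mouse left out); filled points are past the thresholds of the study. Myc, Ier3 and Klf6 stay below 0 and Ier2 and Zfp36 above 0 throughout, while Egr1, Egr2, Egr3, Ier5 and Btg2 take both signs.

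Several of these genes varied more between mice of a group than other genes did. The SD within groups was 0.65 for Btg2 and 0.57 for Egr1 on the log2 scale, higher than that of 99.6% and 99.4% of the 1000 probe sets nearest to each in level. For Ier3 (SD 0.40), Myc (0.32) and Klf6 (0.29) the shares were 95.5%, 93.1% and 90.6%. The SD of Zfp36 (0.23) exceeded 83.2% and that of Ier2 (0.23) 73.1% of such probe sets, while Egr2 (50.7%), Ier5 (44.2%) and Egr3 (15.3%) did not stand high.
The mice were also ordered alike for part of the group. In 7 of the 10 genes (Egr1, Ier2, Ier3, Btg2, Klf6, Zfp36 and Myc), vehicle 1 was lowest and vehicle 3 highest of the vehicle mice, an order held by 22.0% of all probe sets fitted. In 5 of these 7 (Egr1, Ier3, Btg2, Klf6 and Myc), telmisartan 1 was lowest and telmisartan 2 highest of the telmisartan mice, and 3.57% of all probe sets held both orders. Both orders were singled out here after the values of the 10 genes were seen, so the shares describe them and do not test them. Averaged over the 10 genes after each was centred on its own mean, the level was -0.21, 0.03 and 0.27 in vehicle mice 1, 2 and 3 and -0.24, 0.12 and 0.02 in telmisartan mice 1, 2 and 3. The mice of a group thus differed in this average, which does not give the spread of any single gene. The 10 genes share the 6 arrays, and their RNA comes from the same pieces of liver, so they are not independent of one another. Across all probe sets of the file the arrays correlated at a Pearson r of 0.984 to 0.991, with the lowest mean r for vehicle 1 (0.985).

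The genes closest to Egr1, Klf6 and Myc in profile were sought among 5600 genes with a mean log2 level of at least 5, by the root mean square difference of the centred log2 levels over the 6 arrays. Closest to Klf6 were Fcer1g, the common Fc receptor gamma chain of myeloid cells (0.09 log2 units apart), Lgmn, a lysosomal protease (0.10), and Rcan1, an inhibitor of calcineurin (0.10). Closest to Myc were Pld4, a phospholipase D family member (0.12), Rcan1 (0.14) and Igfbp1, the insulin-like growth factor binding protein of hepatocytes (0.15). Closest to Egr1 were Fabp4, the fatty acid binding protein of adipocytes and macrophages (0.20), Rps28, a ribosomal protein (0.22), and Gm38396 (0.22). Among the 10 genes themselves, the closest pairs were Klf6 with Myc (0.11), Ier3 with Myc (0.11) and Ier3 with Klf6 (0.15).

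**Figure D4:**
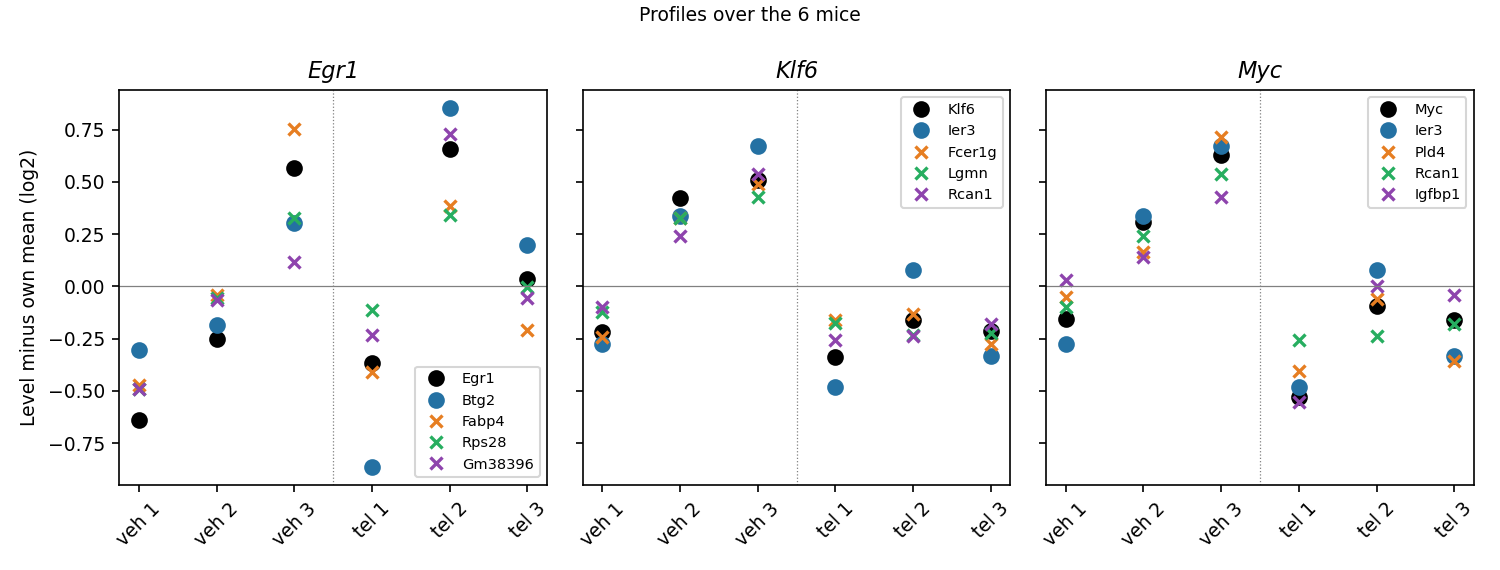
Log2 level of each gene minus its own mean over the 6 mice (vertical axis) in each vehicle (veh) and telmisartan (tel) mouse, for Egr1 with Btg2, Klf6 with Ier3 and Myc with Ier3 (dots), and the 3 most alike genes of each (crosses). Egr1 and Btg2 share the high telmisartan 2 mouse, while Klf6, Myc and Ier3 are high in vehicle 2 and vehicle 3.

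Some markers of endothelial, Kupffer and stellate cells were called lower with telmisartan on the same arrays, where 3.48% of all probe sets were called lower and 3.07% higher. In bulk tissue, fewer cells of a type and less RNA per cell cannot be told apart. Of 8 endothelial cell markers, 7 were called lower, among them Clec4g (-0.74), Oit3 (-0.63), Lyve1 (-0.60), Kdr (-0.52) and Cdh5 (-0.42), and their summed linear intensity was 714 to 889 in vehicle mice and 474 to 687 in telmisartan mice. The count was 2 without vehicle 3, telmisartan 2 or telmisartan 3, and 2 with the methods' t-test. Of 8 Kupffer cell and macrophage markers, 3 were called lower (Marco, Csf1r and Vsig4), with sums of 746 to 1130 against 722 to 804. The others gave -0.33 (Cd5l), -0.12 (Timd4), -0.11 (C1qa), -0.05 (Adgre1) and 0.04 (Clec4f), and were not called. The count of 3 was 4 without vehicle 1. It was 1 without vehicle 2, vehicle 3, telmisartan 1 or telmisartan 3, and 1 with the methods' t-test. Of 8 stellate cell markers, 3 were called lower (Hgf, Lrat and Dcn), with sums of 616 to 776 against 445 to 606. It was 5 without vehicle 1, 1 without vehicle 2 or telmisartan 2, and 1 with the methods' t-test. None of the 8 hepatocyte markers was called (sums of 22513 to 23410 against 22008 to 23694), nor were any of 6 cholangiocyte, 7 lymphocyte and 8 neutrophil markers, whose brightest genes gave -0.03 (Alb), -0.10 (Sox9), -0.24 (Ptprc) and -0.10 (Csf3r). In the cholangiocyte list 1 marker was lower without telmisartan 1 and 1 higher without telmisartan 3. In the lymphocyte list 1 was lower without telmisartan 3, and in the neutrophil list 1 was lower without vehicle 1 or telmisartan 2. With quantile normalization or cyclic loess, 1 lymphocyte and 1 neutrophil marker were lower. All neutrophil markers had a mean log2 level below 4 over the 6 arrays (brightest Csf3r, 3.59). Of the lymphocyte and cholangiocyte markers, only Ptprc (4.79) and Sox9 (4.77) were above it. The absence of calls therefore says little about these cell types. The part of these cells in the lower levels of Klf6 and Myc was not tested.

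Genes related to the 10 were counted in the same way, where 3.48% of all probe sets fitted were called lower and 3.07% higher. With lists this short, the counts say little beside these shares. Of 16 measured relatives in the EGR, IER5, BTG/TOB, KLF, ZFP36 and MYC families, 1 was lower and 0 were higher, with a median log2 fold change of 0.05. This was Zfp36l1, a relative of tristetraprolin, at -0.33 (standard error 0.14, unadjusted limma p of 0.0382). Its level was 8.31 ± 0.21 (SD, n = 3) with vehicle and 7.98 ± 0.13 (SD, n = 3) with telmisartan, the groups overlapped, and the methods' t-test gave a p of 0.0790. It did not pass when vehicle 1, vehicle 3, telmisartan 1 or telmisartan 3 was left out, nor with quantile normalization (p of 0.0508) or the mean of all its probe sets (-0.23, p of 0.112). Klf10, a KLF relative induced by TGF-beta and singled out here after its values were seen, had levels of 4.36, 5.47 and 5.39 with vehicle and 5.62, 5.78 and 5.58 with telmisartan, so that all telmisartan mice were above all vehicle mice. The difference of 0.58 on the log2 scale (standard error 0.27) did not pass, with an unadjusted limma p of 0.0582, and was 0.23 without vehicle 1. It passed with quantile normalization (0.0438), cyclic loess (0.0482) and median centring (0.0487), and without vehicle 2 (0.0260) or vehicle 3 (0.0385), and a different relative was called higher without telmisartan 1. Of 26 other immediate-early genes, 1 was lower and 0 were higher (median -0.05). This was Ifrd1, a transcriptional coregulator, at -0.33 (unadjusted limma p of 0.0417), which was not called without vehicle 1, vehicle 3, telmisartan 1 or telmisartan 3, nor with the methods' t-test (0.0869), quantile normalization (0.0524) or cyclic loess (0.0546). The count of lower genes on this list was 2 without vehicle 1 or vehicle 3. Errfi1, an inhibitor of the EGF receptor, gave -0.30 and did not pass.
None of 13 measured genes on the signal route from the EGF receptor to SRF and CREB was called (median -0.05), and Egfr itself gave -0.05, but 2 were lower without vehicle 1 and 1 without telmisartan 3. Of 12 genes for EGR corepressors and for the MAX and MLX network around MYC, 0 were called with all 6 mice (median 0.07). Mlxipl, the glucose-responsive factor ChREBP, which is not itself a partner of MYC, gave 0.34. In that list 2 genes were higher without vehicle 2 or telmisartan 1, and 1 was higher without vehicle 3, with quantile normalization and with cyclic loess. Nab2, a corepressor that binds EGR proteins and is singled out here after its values were seen, had levels of 6.25, 6.39 and 6.28 with vehicle and 6.43, 6.61 and 6.66 with telmisartan, so that all telmisartan mice were above all vehicle mice. It gave 0.26 (standard error 0.11) with an unadjusted limma p of 0.0411, where the methods' t-test gave 0.0310, and missed the call because its fold was just under 1.2. It was called higher without vehicle 2 or telmisartan 1, with quantile normalization and with cyclic loess, while the mean of all its probe sets gave 0.10 (p of 0.341). Nab1, an EGR corepressor on the same list, went the opposite way at -0.17 (unadjusted limma p of 0.138). All telmisartan mice were below all vehicle mice for Nab1, which was not called. Of 17 measured genes that MYC is known to activate, 2 were lower and 1 was higher, with a median of -0.06. Tfrc, the transferrin receptor, gave -0.87 (standard error 0.27, unadjusted limma p of 0.0108) and Ccnd2, cyclin D2, -0.66 (standard error 0.22), while Shmt1, an enzyme of folate metabolism, gave 0.37 (standard error 0.11). Ccnd2 was not called without vehicle 3 (p of 0.0635), and neither Tfrc nor Ccnd2 passed with the methods' t-test. Pa2g4, the brightest of the list, gave -0.12. Among 12 cytokine and other mRNAs that tristetraprolin is known to destabilize, 0 were called in either direction, with a median of 0.00, and Cxcl1 gave 0.14. Only Cxcl1 (4.74) had a mean log2 level above 4 over the 6 arrays, and Il6 was the dimmest at 1.30. The absence of calls therefore says little about the dim mRNAs. Ier3 is itself on this list, and it was the 1 gene called lower there without vehicle 1 or telmisartan 2. Without vehicle 3, 1 gene of the list was higher.

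In the neighbouring AP-1 and NR4A families, 2 of 9 measured genes were called lower and 1 higher, beside 3.48% and 3.07% of all probe sets. Jun gave -1.39 (limma adjusted p = 0.558) and Nr4a1 -1.05 (limma adjusted p = 0.695), with all telmisartan mice below all vehicle mice. Junb gave 0.34 (limma adjusted p = 0.695), with all telmisartan mice above. All telmisartan mice were also below all vehicle mice for Fos, which gave -0.14 and was not called. None of the 10 genes had its groups apart in this way, which 6.24% of all probe sets held below and 6.07% above. Beside shares of this size, their absence among 10 genes does not set these genes apart. Junb was not called without vehicle 1 (p of 0.0546) or telmisartan 3 (0.0521), and Jund, the brightest of these genes, gave -0.03.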

How the data were processed

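Total RNA of frozen liver was labelled and hybridised to the Affymetrix Mouse Gene 2.0 ST array, 3 mice per group with 1 array each. The authors ran RMA on all arrays together and deposited linear intensities (1.42 to 7835) for 31873 probe sets with signals common to all samples. Which RMA program they used is not given in the sources used here. No pseudocount was added before taking log2.
The probe table, based on the platform annotation, paired 23094 probe sets with 1 gene symbol, 1770 with several and did not list 7009. The former were fitted in R 4.3.3 by lmFit and eBayes of limma 3.58.1 (2-sided, Benjamini-Hochberg adjustment over all of them). Each gene was represented by its brightest probe set. Calls were made at a fold of 1.2 or more and an unadjusted p under 0.05, as in the methods of the study. The fit was checked on simulated data. The 10 genes and all lists were chosen with earlier results of these data known. Genes named from the other lists were those called (the 4 largest changes where more were called) and the gene of the highest level. The labels do not state separate litters, so the spread is that between these mice. The alternatives were each mouse left out, the methods' t-test, a replicate block, 3 further normalizations, a filter on dim probe sets, the mean of a gene's probe sets and a fold of 1.5.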

Additional observations from a re-analysis of the deposited data

How the results depend on the processing

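The count of 2 genes called lower was 3 with the replicate block, 0 with the methods' t-test and 0 at a fold of 1.5, and it was 0 to 3 when 1 mouse was left out. It was 0 without vehicle 2, vehicle 3, telmisartan 1 or telmisartan 3. The count of 0 genes called higher was 1 with the replicate block (Ier2) and 0 to 1 without 1 mouse. Over the whole table, the 1512 calls became 735 with the methods' t-test, 776 with the filter on dim probe sets (a mean log2 level of at least 4 in one group) and 179 at a fold of 1.5, and 1245 to 1783 without 1 mouse. The filter left out Egr2, Egr3 and Ier5, and Ier3 passed it through the vehicle group alone.
The sign of Egr3 turned with quantile normalization (-0.00727) and with cyclic loess (-0.00125). Without 1 mouse, the log2 fold change ranged from -0.0573 to 0.555 for Egr1, from -0.0399 to 0.153 for Egr2, from -0.0260 to 0.0809 for Egr3, from -0.147 to 0.0519 for Ier5 and from -0.27 to 0.59 for Btg2. The other 5 genes kept their direction under every alternative. The causes were not tested.
The replicate numbers are shared by the groups but did not pair the mice: deviations from the group means correlated over probe sets at 0.04, -0.02 and 0.03 for numbers 1, 2 and 3, and not every mouse correlated best with its own number. With the replicate block, Klf6 (p of 0.0147) and Myc (0.00556) were called, as were Ier3 (0.0271) and Ier2 (0.0325). The block also ended the calls of Zfp36l1 (0.0636) and Ifrd1 (0.0664), and Klf10 (0.0273) was called higher. It made 1 gene lower in the list of the signal route and 1, Ier3 itself, in that of mRNAs bound by tristetraprolin. No background signal was used here, so whether Egr2 and Egr3 stood above background was not tested.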
